A study of Homo sapiens with 72 samples.

Results

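Untreated Raji and NALM6 cells were compared for dimethylation of lysine 4 on histone H3 (H3K4me2), measured by Cut&Tag. The members were merged regions of called peaks: the peaks of 3 untreated Raji libraries and of NALM6 replicates 2 and 3 on chromosomes 1 to 22, X and Y were joined wherever they overlapped by at least 1 bp. This gave 19934 regions with a median length of 2590 bp, built from the H3K4me2 peaks of 5 of the 54 histone mark libraries of the series, which together hold 962804 peaks of 3 marks; its IgG libraries were not used here. A region within 1.0 kb of an annotated start of a protein-coding or long non-coding RNA gene was called a gene-start region (12812 regions), and the rest were called distal (7122 regions).

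Raji is an established Burkitt's lymphoma cell line and NALM6 an established acute lymphoblastic leukemia cell line, and both received no treatment in the libraries compared. Libraries of the same lines after culture with 1 nM bryostatin, untreated H3K4me3 and H3K27me3 libraries, and untreated H3K4me2 libraries of REH, another acute lymphoblastic leukemia line, served as further readouts. The lines were grown in the same medium. Each line is a single tumour, so a difference between them cannot be told apart from what is particular to those tumours. The labels do not say whether replicates were separate cultures, so the p-values measure only the spread between these libraries.

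In Cut&Tag an antibody against the mark recruits a transposase that inserts sequencing adapters into nearby DNA, and the tagged fragments are sequenced. H3K4me2 lies at active gene starts and also at enhancers, including poised ones, whereas H3K4me3 is concentrated at active starts and H3K27me3 covers genes silenced by Polycomb. Precursor B cells rearrange their antigen receptor genes with the RAG proteins and terminal transferase and carry the surrogate light chain, whereas germinal centre B cells, from which Burkitt's lymphoma arises, carry a complete receptor and the genes of antigen presentation and of contact with T cells.

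The sequences below come from hg38 and belong to regions described here. They show the strongest signal of distal regions of each line, the stretches before 3 immunoglobulin V genes, and 3 promoters. Capitals mark matches on either strand to short letter patterns associated with B cell transcription factors: CCCNNGGG (EBF), GAGGAAGT (PU.1), ATGCAAAT (octamer), TGTGGTT (RUNX), CAGCTG (E-box), CAGGTG (E-box), CACGTG (E-box), TGA and TCA with any base between them (AP-1), TGTTTAC (forkhead), GGGACTTTC (kB), GAAANNGAA (IRF), TAATCTAAT (DUX4) and TGGGAA (RBPJ). Overlapping matches are capitalised as 1 run, and a match is a description of letters only.

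The first window lies in CUX1, a homeobox gene, in an intron 39.5 kb from the nearest start, at chr7:101856936-101857235 (+ strand), and its region was higher in Raji. The next lies in an intron of VOPP1 at chr7:55557686-55557985 (+), in a region called in Raji only. It and the V gene stretches were chosen for holding the octamer, as 8.32% of the distal windows called in Raji only did.
CUX1 distal: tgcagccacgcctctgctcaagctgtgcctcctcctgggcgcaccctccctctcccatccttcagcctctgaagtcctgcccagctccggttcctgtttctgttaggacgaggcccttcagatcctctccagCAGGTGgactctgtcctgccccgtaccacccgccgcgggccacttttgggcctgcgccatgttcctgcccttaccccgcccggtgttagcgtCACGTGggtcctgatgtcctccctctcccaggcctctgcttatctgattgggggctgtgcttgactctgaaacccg
VOPP1 distal: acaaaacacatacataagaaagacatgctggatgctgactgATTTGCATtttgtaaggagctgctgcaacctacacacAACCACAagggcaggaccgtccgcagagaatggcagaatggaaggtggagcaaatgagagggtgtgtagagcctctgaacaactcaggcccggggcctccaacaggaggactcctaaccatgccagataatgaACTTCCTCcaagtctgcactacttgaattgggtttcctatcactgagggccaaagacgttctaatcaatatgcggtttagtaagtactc
The following 3 stretches lie before V genes of the lambda, kappa and heavy chain loci, in regions called in Raji only, and are printed in the direction of the V gene: chr22:22030850-22030933 (+), chr2:89234965-89235064 (-) and chr14:106301867-106301966 (-).
Before IGLV4-69: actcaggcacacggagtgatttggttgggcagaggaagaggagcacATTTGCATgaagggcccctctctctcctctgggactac
Before IGKV2-29: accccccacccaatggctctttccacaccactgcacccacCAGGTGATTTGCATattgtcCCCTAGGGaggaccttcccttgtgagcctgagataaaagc
Before IGHV2-26: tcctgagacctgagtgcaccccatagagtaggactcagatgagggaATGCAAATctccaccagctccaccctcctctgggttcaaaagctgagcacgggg
The next 3 windows belong to NALM6. The PTMA window, at chr2:231682566-231682865 (+), lies between genes 25.8 kb from the start of PTMA, in a region higher in NALM6. The BAHCC1 window, at chr17:81429756-81430055 (+), and the ZMIZ1 window, at chr10:79148336-79148635 (+), lie in introns of those genes, in regions called in NALM6 only.
PTMA distal: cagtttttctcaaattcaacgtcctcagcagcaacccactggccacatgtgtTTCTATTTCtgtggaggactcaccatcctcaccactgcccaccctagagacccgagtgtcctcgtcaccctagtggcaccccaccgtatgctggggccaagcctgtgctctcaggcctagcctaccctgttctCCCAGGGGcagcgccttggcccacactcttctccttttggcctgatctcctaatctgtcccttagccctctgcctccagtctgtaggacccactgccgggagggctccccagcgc
BAHCC1 distal: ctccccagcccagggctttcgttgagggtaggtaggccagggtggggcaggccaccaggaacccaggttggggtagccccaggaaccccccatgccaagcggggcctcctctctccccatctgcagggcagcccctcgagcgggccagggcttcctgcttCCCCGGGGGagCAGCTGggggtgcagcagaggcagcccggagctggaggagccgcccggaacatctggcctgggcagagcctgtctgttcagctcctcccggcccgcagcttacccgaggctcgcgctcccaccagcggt
ZMIZ1 distal: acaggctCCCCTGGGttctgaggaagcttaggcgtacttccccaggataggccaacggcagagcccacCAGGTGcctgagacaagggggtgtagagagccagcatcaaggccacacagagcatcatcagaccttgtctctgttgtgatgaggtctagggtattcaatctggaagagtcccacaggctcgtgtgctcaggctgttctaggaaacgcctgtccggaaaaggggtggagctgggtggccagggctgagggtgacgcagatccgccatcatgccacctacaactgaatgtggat
The promoters are those of EBI3 (chr19:4229273-4229522, +), called in Raji only, VPREB1 (chr22:22244536-22244779, +), called in NALM6 only, and CD22 (chr19:35328937-35329165, +), called in all 5 libraries. They are identical to the GRCh38.p14 promoters of RefSeq, with bases that lie in annotated exons left out.
EBI3 promoter: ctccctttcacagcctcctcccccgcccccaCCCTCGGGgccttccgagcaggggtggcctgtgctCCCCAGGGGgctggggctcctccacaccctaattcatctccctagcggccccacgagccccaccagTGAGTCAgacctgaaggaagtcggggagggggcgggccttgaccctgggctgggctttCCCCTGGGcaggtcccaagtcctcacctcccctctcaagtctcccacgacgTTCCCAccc
VPREB1 promoter: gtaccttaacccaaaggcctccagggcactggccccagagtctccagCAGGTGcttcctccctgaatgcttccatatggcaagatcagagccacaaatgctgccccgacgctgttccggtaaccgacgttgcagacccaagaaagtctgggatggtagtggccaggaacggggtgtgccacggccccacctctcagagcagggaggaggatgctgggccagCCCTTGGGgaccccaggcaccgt
CD22 promoter: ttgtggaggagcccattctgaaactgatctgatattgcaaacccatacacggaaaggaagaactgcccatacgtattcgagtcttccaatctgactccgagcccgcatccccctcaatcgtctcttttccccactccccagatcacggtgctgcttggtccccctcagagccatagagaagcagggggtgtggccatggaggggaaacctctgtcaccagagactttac

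The libraries differed in depth and in the number of peaks. Raji had 19641, 10464 and 14644 peaks in replicates 1, 2 and 3 from 8.31, 6.70 and 13.9 M mapped reads. NALM6 had 9192 and 11663 peaks in replicates 2 and 3 from 23.04 and 8.24 M mapped reads. NALM6 replicate 1 had 7130 peaks on another scale whose factor is not stated and none on chromosome X, so it was used for presence only. Across the regions tested, log2 levels of libraries of the same line correlated with r of 0.91 to 0.96, and those of different lines with r of 0.62 to 0.68. The regions are not independent replicates, and the r values are descriptive.

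The level of a region in a library was its total signal, the RPKM coverage summed over the called bases, given here as a multiple of the library's median region. Because the sum grows with the called length, a level can be high through a wide mark or through a dense one. The 6675 regions called in all 5 libraries (6303 gene-start and 372 distal) were tested with limma on log2 levels, with Benjamini-Hochberg adjustment at 0.05.

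The 2 lines differed in both directions at the regions they had in common. Of the 6675 regions, 1066 (16%) were higher in Raji and 1131 (16.9%) were higher in NALM6, so that 32.9% passed the adjusted p. The difference exceeded 1 on the log2 scale for 284 regions toward Raji and for 437 toward NALM6. At gene starts 1001 regions were higher in Raji and 1015 in NALM6 (32% called). Of the 372 distal regions, 65 (17.5%) were higher in Raji and 116 (31.2%) in NALM6. This split depended on the settings and was 52 against 65 with an equal number of peaks per library. It was 75 against 199 without Raji replicate 2 and 12 against 45 with NALM6 replicate 1 in the fit. Without NALM6 replicate 2 the median distal difference was -0.04, in place of -0.18. Whatever the p, the groups did not overlap at 58.6% of the regions (67.2% of the distal ones), and of the 2197 called regions 2195 were among these (48.4% of the distal regions were called and did not overlap). Without centring on the median region, which moved the median of all differences from -0.04 to -0.28, 302 regions were higher in Raji and 1041 in NALM6, and the Raji share of the calls was 22.5% in place of 48.5%. Without NALM6 replicate 3 the count of calls fell to 1238.

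Both the called length and the density of the mark went with the calls. The sum is the product of the 2, so calls made on it select for both, and these counts describe the called regions only. Among the regions higher in Raji, 951 of 1066 were longer in Raji relative to the library median and 956 had a higher mean signal per base there. Among those higher in NALM6, 1004 of 1131 were longer and 1033 denser in NALM6. Of the 4478 regions not called, 2259 were longer in Raji and 2218 in NALM6. The median called length of the tested regions was 2.04, 1.87 and 3.28 kb in the Raji libraries and 3.19 and 2.15 kb in the NALM6 libraries, and the median of their mean signal was 323, 284 and 240 RPKM and 274 and 333 RPKM. With the mean per base alone, 580 regions passed the adjusted p, and 540 of the 2197 were called in the same direction.

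**Figure D1:**
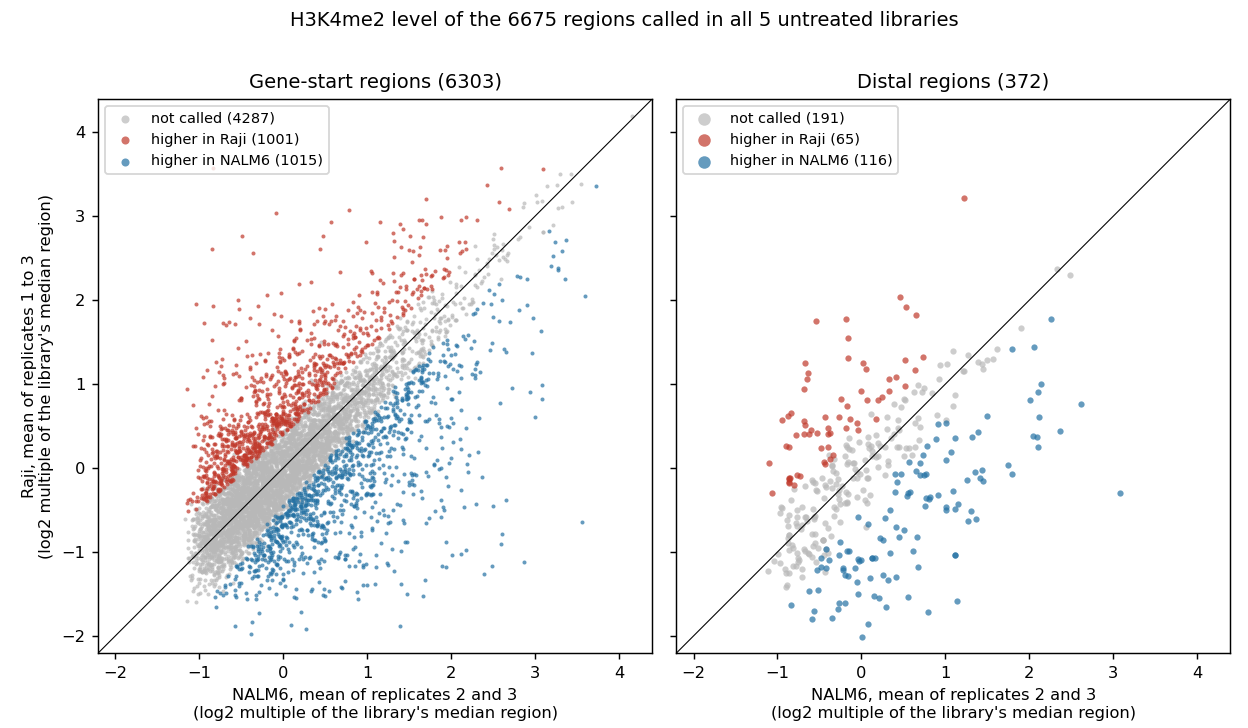
Each point is a region called in all 5 untreated libraries, with the mean log2 level of NALM6 replicates 2 and 3 on the x axis and of the 3 Raji replicates on the y axis, both as multiples of the library's median region. Regions higher in Raji (1001 gene-start, 65 distal) lie above the line of equal levels and those higher in NALM6 (1015 and 116) below it.

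The largest gene-start differences toward Raji lay at SEMA7A, FGR and CD27 and at 2 long non-coding RNA genes on chromosome 9. SEMA7A encodes a membrane-anchored semaphorin, and its region (chr15:74418841-74436560) had levels of 5.31, 6.73 and 6.37 in Raji and 0.563 and 0.549 in NALM6, a log2 difference of 3.46. The mark covered 11.8, 13.6 and 17.7 kb at SEMA7A in Raji and 2.51 and 1.49 kb in NALM6, while its mean per base differed by only 0.45 on the log2 scale (adjusted p 0.24). FGR encodes a kinase of the SRC family. Its region (chr1:27621151-27635920) had levels of 6.65, 6.72 and 6.99 in Raji and 0.761 and 0.668 in NALM6, a log2 difference of 3.25. The FGR mark was both longer and denser in Raji, with a log2 difference in the mean per base of 1.42.

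CD27 encodes a TNF receptor family member of memory and germinal centre B cells. Its region (chr12:6442381-6448680) had levels of 3.77, 3.82 and 4.07 in Raji and of 0.537 and 0.444 in NALM6. The log2 difference was 2.99 (SE 0.14, limma adjusted p 8.54e-08). The region was overlapped by H3K4me3 peaks in 3 of 3 Raji libraries and in neither NALM6 library. The 2 chromosome 9 regions, at ENSG00000287168 (chr9:62798831-62805240, log2 difference 4.41) and ENSG00000229422 (chr9:62835071-62839550, 3.13), lie close to each other in a part of the genome with many near-identical copies, where the placement of reads is uncertain.

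Toward NALM6 the largest gene-start differences lay at TMEM210, ARRB1, ITM2C, TMEM121 and BAHCC1. The region named by TMEM210 (chr9:137165661-137176750) also holds the starts of ANAPC2, GRIN1 and LRRC26, so that its genes cannot be told apart. Its levels were 0.530, 1.02 and 0.493 in Raji and 10.4 and 13.3 in NALM6, a log2 difference of -4.20. ARRB1 encodes beta-arrestin 1, which ends signalling by G protein-coupled receptors. Its region (chr11:75337851-75353440) had levels of 0.401, 0.523 and 0.460 in Raji and 6.99 and 7.67 in NALM6, with the mark over 1.10, 1.19 and 2.71 kb against 15.6 and 11.4 kb. The log2 differences at ITM2C, TMEM121 and BAHCC1 were -3.66, -3.65 and -3.50. ITM2C lost its call on the mean per base (-0.55, adjusted p 0.15), the other 4 kept theirs.

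Some starts carried peaks in 1 line only. Such presence had no test, since it depends on depth and on the peak caller. Regions called in 3 of 3 Raji libraries and in none of 3 NALM6 libraries numbered 1918 (9.62% of all regions), of which 1221 were gene-start (9.53% of that class) and 697 distal (9.79%). Without Raji replicate 2 these counts were 2566 and 2632. Regions called in NALM6 replicates 2 and 3 and in no Raji library numbered 1586 (7.96%), of which 963 were gene-start (7.52%) and 623 distal (8.75%), and 840 of them also overlapped a peak of the sparser NALM6 replicate 1. When each library was cut to an equal number of its strongest peaks, the counts were 1206 for Raji and 1929 for NALM6, so the order of the lines turned.

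The highest levels among starts called in Raji only were at KCNN3, a calcium-activated potassium channel gene (7.65, 8.14 and 8.77), at WNT10A, which encodes a WNT ligand (3.56, 5.40 and 5.21), and at SKI, a repressor of TGF-beta signalling (4.05, 4.76 and 4.06). Among those called in NALM6 only they were at ELFN2 (9.68 and 13.5), at EGFL7, whose region also holds the microRNA gene MIR126 (7.98 and 8.01), and at C7orf50 with GPR146 (6.74 and 9.12). The mark at KCNN3 spanned up to 17.0 kb in Raji.

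Of 26 genes of the B lineage list, 20 carried H3K4me2 in all 5 libraries and were tested. Of these, 10 were higher in Raji, 1 was higher in NALM6 and 9 did not pass the test. A further 2 were called in Raji only and 4 in some libraries. Over all 20007 protein-coding genes 5.45% had a start higher in Raji, 5.72% one higher in NALM6, 4.68% one called in Raji only and 3.24% one called in NALM6 only, and 39.9% had no region at the start. Of the 7200 with a tested start, 15.2% were higher in Raji and 15.9% in NALM6. The median log2 difference of the tested members was 0.34, and that of all tested protein-coding genes was -0.04.

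CD22, a B cell surface antigen used as a target of immunotherapy, was higher in Raji. It is an inhibitory lectin, and its promoter is printed above. Its start region had levels of 2.49, 3.14 and 2.97 in Raji and 1.31 and 1.51 in NALM6 (chr19:35327621-35336420). Every Raji library was above both NALM6 libraries, with a log2 difference of 1.02 (SE 0.14, limma adjusted p 0.000204). The CD22 mark covered 5.52, 6.42 and 8.80 kb in Raji and 4.33 and 3.52 kb in NALM6, with means of 301, 257 and 261 RPKM and 255 and 296 RPKM. After centring on the library medians, the mean per base differed by 0.09 (adjusted p 0.85). MS4A1, which encodes CD20, had a start peak in Raji replicates 1 and 3 (0.781 and 1.20) and in no other library of the comparison (chr11:60454771-60460840).

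Of the other B lineage genes, IKZF1, which encodes the lymphoid factor Ikaros, had levels of 5.12, 4.78 and 5.14 in Raji and 2.63 and 2.74 in NALM6, a log2 difference of 0.90. LYN, a kinase of the antigen receptor, differed by 0.90 and SPIB, an ETS factor of B cells, by 0.86. Smaller differences toward Raji passed the test at BACH2 (0.76), POU2F2 (0.66), SYK (0.49), CD72 (0.47), TCF3 (0.46) and CD79A (0.43). The regions of SPIB, CD72 and CD79A also hold the starts of POLD1, SIT1 and ARHGEF1, so that these pairs cannot be told apart. IKZF1 lies on chromosome 7, which as a whole leaned toward Raji, and its call was lost when each 20 Mb stretch was centred apart (0.30, adjusted p 0.10). IKZF1 and LYN also lost their calls on the mean per base. With NALM6 replicate 1 in the fit the IKZF1 call was lost too (0.55, adjusted p 0.27). By limma IKZF1 did not pass the test after bryostatin (0.34, adjusted p 0.12) but was higher in Raji by H3K4me3 (0.65, adjusted p 0.0092). CD37, a B cell tetraspanin, was called in Raji only at 3.37, 3.48 and 4.83, and IRF8, a factor of germinal centre B cells, at 2.89, 1.60 and 3.67.

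EBF1, a factor that commits cells to the B lineage, was the member higher in NALM6. Its levels were 1.48, 1.16 and 1.70 in Raji and 2.37 and 2.62 in NALM6, and the log2 difference was -0.80 (SE 0.17, limma adjusted p 0.00295). On the maximum signal it was 0.08 the other way (adjusted p 0.86). The call was also lost on the mean per base (-0.63, adjusted p 0.12). By limma EBF1 did not pass the test after bryostatin (-0.41, adjusted p 0.18) but was lower in Raji by H3K4me3 (-0.71, adjusted p 0.0081). PAX5 (-0.16), CD79B (0.03), POU2AF1 (-0.19) and FOXO1 (-0.06) did not pass the test.

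Of 20 genes of the precursor B cell list, 6 were called in NALM6 only, 1 in Raji only, 1 was higher in each line, 2 did not pass the test, 3 were called in some libraries and 6 had no region at the start. The 6 were RAG1, which cuts antigen receptor genes for rearrangement, DNTT, which encodes terminal transferase, VPREB1, a part of the surrogate light chain, LEF1, a WNT pathway factor, ARPP21 and the tetraspanin gene CD9. In NALM6 replicates 2 and 3 the levels were 4.02 and 4.39 at LEF1, 3.15 and 3.92 at CD9, 2.27 and 2.45 at VPREB1 and 1.68 and 1.25 at DNTT. All 4 of these regions were also called in 3 of 3 REH libraries and lacked H3K4me3 in every Raji library. The median of the 4 tested members was 0.08, with values of 0.11 for MME and 0.05 for VPREB3, which did not pass the test. VPREB3 shares its region with ZNF70. IL7R had untreated H3K4me2 peaks in Raji replicates 1 and 3 and in no NALM6 library, and H3K4me3 peaks in 2 of 3 Raji and 2 of 2 NALM6 libraries. IGLL1, the other part of the surrogate light chain, had levels of 0.250, 0 and 0.256 in Raji and 5.64 and 6.25 in NALM6.

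SOX4 and MYB, also on the precursor list, went opposite ways in the 2 marks. Untreated H3K4me2 at SOX4 was read as presence only and had no test. SOX4 had start peaks in Raji only, at 0.722, 0.556 and 0.817, yet its H3K4me3 was lower in Raji by a log2 difference of -2.07 (limma adjusted p 4.41e-06). After bryostatin SOX4 had H3K4me2 peaks in 3 Raji and 2 NALM6 libraries, with a log2 difference of 0.72 (limma adjusted p 0.0060). MYB, a factor of immature blood cells, differed by 0.75 in H3K4me2 (SE 0.13, limma adjusted p 0.000764) and by -0.80 in H3K4me3 (limma adjusted p 0.00132). The H3K4me2 call at MYB was lost without centring, on the maximum and the mean signal, and when each 20 Mb stretch was centred apart (0.42, adjusted p 0.07). The member higher in NALM6 lies in a sequence shared by the X and Y chromosomes and is not named.

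Of 28 genes of mature and germinal centre B cells, 12 were called in Raji only, 5 were higher in Raji, 1 was higher in NALM6, 2 did not pass the test and 8 were called in some libraries, and the median of the 8 tested was 0.86. Among the 12 were the complement receptor gene CR2, FCER2, the costimulatory ligand genes CD80 and CD86, CXCR5, RGS13, MEF2B, TNFRSF17, FCRL1, FCRL2 and FCRL3. CD80 had levels of 3.84, 3.20 and 4.08, and MEF2B, a germinal centre factor, had levels of 3.65, 3.50 and 5.19. CXCR5, the receptor that guides B cells into follicles, had levels of 1.80, 2.21 and 3.08, and like CD80 and MEF2B it had no peak in any REH library. Besides CD27, the members higher in Raji were CCR7 (1.44), CD40 (1.34), CCR6 (1.03) and S1PR2 (0.69), whose region also holds the start of DNMT1. CD40 is the receptor for T cell help, and the other 3 guide the position of B cells in lymphoid tissue.

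BCL6, the repressor that maintains the germinal centre state, was the tested member higher in NALM6 on H3K4me2. Its start region (chr3:187737021-187746300) had levels of 1.23, 0.386 and 1.40 in Raji and 2.78 and 3.02 in NALM6. The groups did not overlap, and the log2 difference was -1.73 (SE 0.41, limma adjusted p 0.00657). Raji replicate 2 stood lowest, and without it the difference was -1.10 and kept its call. H3K4me3 over the same region was higher in Raji, with a log2 difference of 1.06 (limma adjusted p 7.5e-05). The H3K4me2 call was lost on the maximum signal (-0.64, adjusted p 0.052), on the mean per base (-0.75, adjusted p 0.066) and with NALM6 replicate 1 in the fit (-0.92, adjusted p 0.40). Beside this region lay a stretch of 0.406 Mb (chr3:187746301-188152630), from the BCL6 gene to LINC01991, with 4 regions called in Raji only and no peak in any of 9 NALM6 libraries (3 untreated H3K4me2, and replicates 2 and 3 of bryostatin-treated H3K4me2, untreated H3K4me3 and untreated H3K27me3). IRF4, a factor of activated and plasma cells and among the 8 called in some libraries, had levels of 0.204, 0 and 0.568 in Raji and 1.85 and 2.19 in NALM6. By limma it was also lower in Raji after bryostatin (-1.93, adjusted p 0.000377) and by H3K4me3 (-3.95, adjusted p 4.35e-06).

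**Figure D2:**
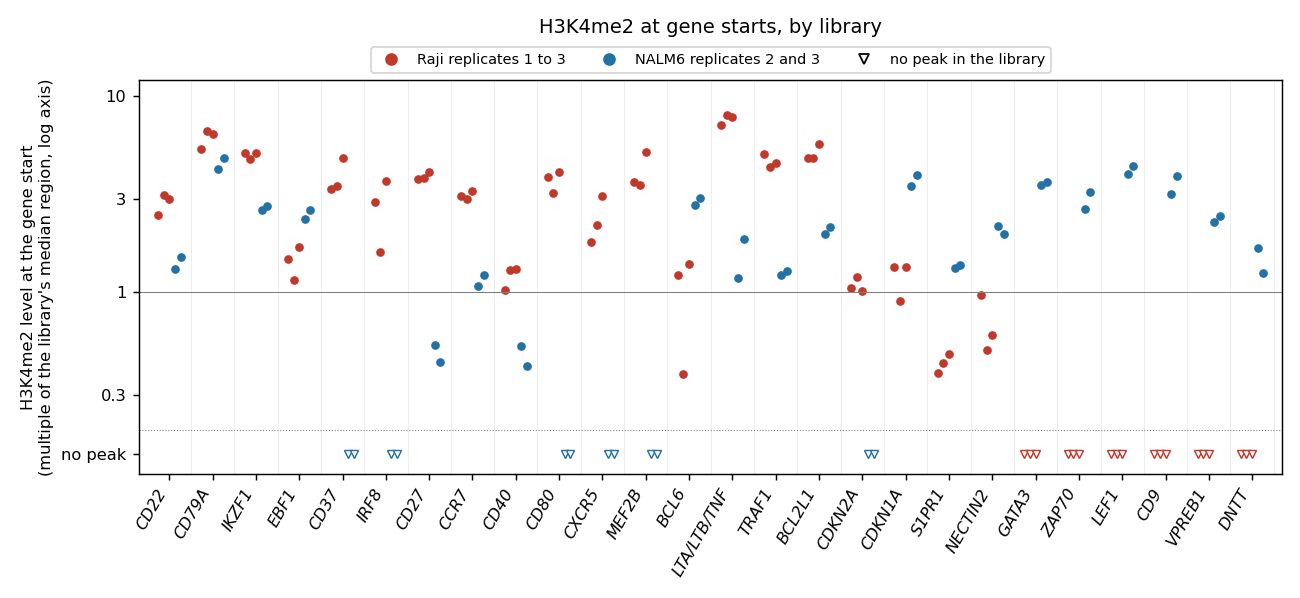
Each filled point is the H3K4me2 level of a gene's start region in 1 library, as a multiple of the library's median region on a log axis, for Raji replicates 1 to 3 and NALM6 replicates 2 and 3, and an open triangle marks a library with no peak. CD22 (2.49 to 3.14 in Raji, 1.31 and 1.51 in NALM6) does not overlap between the lines, and the genes from GATA3 to DNTT have peaks in NALM6 only.

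NF-kB factors are held in the cytoplasm by inhibitors and, once released, switch on survival and inflammatory genes. Of 25 genes, 8 were higher in Raji, 5 were called in Raji only, 1 was higher in NALM6, 1 was called in NALM6 only, 8 did not pass the test and 2 were called in some libraries, with a median of 0.39 over the 17 tested. The shares higher in Raji (32%) and called in Raji only (20%) stand beside 5.45% and 4.68% of all protein-coding genes. Among the 17 tested, the 8 higher in Raji stand beside 15.2% of protein-coding genes with a tested start. The ligand genes LTA, LTB and TNF share a single region (chr6:31567261-31583530), so they count as 3 genes and 1 measurement. Its levels were 7.07, 7.96 and 7.80 in Raji and 1.18 and 1.86 in NALM6, with a log2 difference of 2.36 (SE 0.17, limma adjusted p 1.43e-06). H3K4me3 peaks overlapped it in 3 of 3 Raji libraries and in neither NALM6 library.

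TRAF1, an adaptor of TNF receptors, had levels of 5.04, 4.34 and 4.52 in Raji and 1.23 and 1.29 in NALM6, a log2 difference of 1.88. Its call was lost on the maximum signal (0.46, adjusted p 0.10) and on the mean per base (0.12, adjusted p 0.84). The caspase regulator gene CFLAR differed by 1.04, and smaller differences passed the test at BCL3 (0.53), NFKB2 (0.46) and the inhibitor gene NFKBIE (0.42), whose region also holds the start of SLC35B2. The chemokine genes CCL22, CCL17 and CCL4, the apoptosis inhibitor gene BIRC3 and EBI3, a cytokine subunit gene first found as induced by Epstein-Barr virus, were called in Raji only. The EBI3 promoter printed above holds 4 matches to CCCNNGGG, which 17.1% of the 35116 promoters of 250 bases hold at least once, and 1 to the AP-1 letters, which 6.57% hold. NFKB1 (-0.05), RELA (-0.22), RELB (0.14) and REL (-0.45), which encode the factors themselves, did not pass the test. JUNB, in a region shared with HOOK2, was higher in NALM6 (-0.34, adjusted p 0.035), a call lost under several settings, and STAT5A, in a region shared with STAT5B, was called in NALM6 only.

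The ligands recognised by NK and T cells were examined in the study after bryostatin. Of 28 such genes, 11 did not pass the test, 1 was higher in Raji, 1 was called in Raji only, 2 were higher in NALM6, 9 were called in some libraries and 4 had no region at the start, with a median of 0.05. The shares called higher, 3.57% in Raji and 7.14% in NALM6, stand beside 5.45% and 5.72% of all protein-coding genes. Among the 14 tested, 1 was higher in Raji and 2 in NALM6, beside 15.2% and 15.9% of protein-coding genes with a tested start. Among the 9, SLAMF1, LY9 and SLAMF6 had peaks in Raji replicates 1 and 3 and in no NALM6 library, and CD48 had levels of 2.66, 0.956 and 2.96 in Raji and 0 and 0.382 in NALM6. TNFRSF10B, a TRAIL receptor gene also among the 9, had levels of 0.401, 0 and 0.424 in Raji and 1.11 and 1.14 in NALM6. It lies on chromosome 8 between 20 and 40 Mb, where the median difference of all tested regions was -1.26. NECTIN2, a ligand of DNAM-1, had levels of 0.966, 0.507 and 0.609 in Raji and 2.16 and 1.97 in NALM6, a log2 difference of -1.63. This difference lay in the called length, since the maximum signal (0.28) and the mean per base (0.31) were higher in Raji, without passing the test. ULBP2, a ligand of NKG2D, differed by -0.84, a call lost on the maximum signal (-0.57), on the mean per base (-0.70) and without NALM6 replicate 3 (-0.65). The death receptor gene FAS, in a region shared with ACTA2, differed by 0.49 (adjusted p 0.035), a call lost under several alternatives, and TNFRSF10A, another TRAIL receptor gene, was called in Raji only. MICA (0.33), MICB (0.27), ICAM1 (0.39), HLA-E (-0.20) and BAG6 (-0.26), in a region shared with APOM, did not pass the test. ICAM1 was higher in Raji after bryostatin (0.59, adjusted p 0.011) and by H3K4me3 (3.13, adjusted p 4.59e-06).

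Of 12 MHC class II genes, which present antigen to helper T cells, 6 did not pass the test, 1 was higher in Raji and 5 were called in some libraries, with a median of 0.23. The share higher in Raji was 8.33%, beside 5.45% of all protein-coding genes. Among the 7 tested members it was 1, beside 15.2% of protein-coding genes with a tested start. The member higher in Raji was HLA-DPB1 (0.86, SE 0.17, limma adjusted p 0.00208), a call lost on the maximum signal (0.58), on the mean per base (0.57) and without centring (0.62). The class II transactivator gene CIITA, in a region shared with CLEC16A and DEXI, had a log2 difference of 0.06.

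Growth control genes differed in both directions. Of 22 genes, 5 were called in Raji only, 3 were higher in Raji, 5 were higher in NALM6, 5 did not pass the test and 4 were called in some libraries, with a median of -0.11. The shares were 13.6% higher in Raji, 22.7% higher in NALM6 and 22.7% called in Raji only, beside 5.45%, 5.72% and 4.68% of all protein-coding genes. Among the 13 tested, 3 were higher in Raji and 5 in NALM6, beside 15.2% and 15.9% of protein-coding genes with a tested start. BCL2L1, which encodes the survival protein BCL-XL, had levels of 4.83, 4.80 and 5.69 in Raji and 1.99 and 2.16 in NALM6 (log2 difference 1.30), a call lost on the mean per base (0.63, adjusted p 0.071). ETV6, an ETS family repressor (0.85), and the cell death gene BMF (0.48, adjusted p 0.013) were the others higher in Raji. The ETV6 call was lost on the mean per base (0.63), without centring (0.61) and with each 20 Mb stretch centred apart (0.28, adjusted p 0.21), and ETV6 did not pass the test after bryostatin (0.45) or by H3K4me3 (0.05). BCL2 itself was higher in NALM6 (-0.71), as were the cell death genes BCL2L11 (-0.58) and BAK1 (-0.63), the cyclin gene CCND3 (-0.65) and the cell cycle inhibitor gene CDKN1A. On the maximum signal BCL2L11 (-0.018), CCND3 (-0.045) and BCL2 (-0.54) lost their calls, as they did without NALM6 replicate 3 (-0.46, -0.52 and -0.63), CCND3 and BCL2 also on the mean per base (-0.46 and -0.44), and BCL2L11 was higher in Raji by H3K4me3 (0.31, adjusted p 0.023). With NALM6 replicate 1 in the fit CCND3 (-0.27) and BCL2 (-0.59) lost their calls, as did BCL2L11 with peaks joined over 500 bp (-0.40). By limma BCL2 did not pass the test after bryostatin (-0.39, adjusted p 0.26) but was lower in Raji by H3K4me3 (-0.98, adjusted p 0.00018). CDKN1A had levels of 1.34, 0.904 and 1.34 in Raji and 3.48 and 3.96 in NALM6, a log2 difference of -1.66.

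The inhibitor genes CDKN2A and CDKN2B and the neighbouring MTAP were called in Raji only, along with the cyclin gene CCND1 and the cell death gene BIK. CDKN2A, CDKN2B and MTAP lie in a single stretch, so their part in the share called in Raji only comes from a single locus. CDKN2A had levels of 1.05, 1.20 and 1.02 in Raji. The NALM6 libraries held no peak of any mark over 7.14 Mb around it (chr9:19505881-26641050), in the same 9 libraries, whereas each untreated Raji H3K4me2 library held 4 to 7 peaks there. The same held for 2.27 Mb on chromosome 7 with MDFIC, TES, CAV1 and MET (chr7:114417201-116684360), where those Raji libraries held 5 to 15 peaks. Whether DNA is missing there in NALM6 was not tested.

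Of 20 homing and adhesion genes, CXCR5, ITGAL, ITGB7 and ITGAX were called in Raji only (20% of the list, beside 4.68% of all protein-coding genes) and CCR7, CCR6 and S1PR2 were higher in Raji. Of the rest, 1 was higher in NALM6, 6 did not pass the test, 3 were called in some libraries and 3 had no region at the start, and the median of the tested members was 0.12. S1PR1, the receptor with which lymphocytes leave tissues, was higher in NALM6, with levels of 0.391, 0.438 and 0.486 in Raji and 1.33 and 1.37 in NALM6 (log2 difference -1.63), a call lost on the mean per base (-0.80, adjusted p 0.055). CXCR4 (-0.12), the bone marrow homing receptor gene, did not pass the test. Of 9 plasma cell genes, TNFRSF17 was called in Raji only, SDC1 in NALM6 only, and DERL3 was higher in NALM6 (-1.17), a call lost on the mean per base (-0.72, adjusted p 0.062). Each is 11.1% of the list, beside 4.68%, 3.24% and 5.72% of all protein-coding genes. DERL3 was 1 of 5 members tested, and 15.9% of protein-coding genes with a tested start were higher in NALM6.

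Markers of other cell types were mostly without H3K4me2. Of 14 T cell genes, 11 had no region at the start, CD3D, CD3E and CD3G among them, but GATA3 (3.53 and 3.63) and ZAP70 (2.65 and 3.23) were called in NALM6 only and CD247 was higher there (-1.49). The summed level of the T cell list was 0.392 to 0.734 in Raji and 7.62 to 8.27 in NALM6. Its share called in NALM6 only was 14.3%, beside 3.24% of all protein-coding genes. Of 9 NK cell genes, 8 had no region, and NKG7 was called in Raji only. Of 13 myeloid genes 10 had none, and of 9 erythroid and megakaryocyte genes 8 had none, with EPOR called in Raji only. Of 8 genes of DUX4-type leukemia, the subtype to which NALM6 is assigned, AGAP1 and PTPRM were called in NALM6 only, GPR155 was higher there (-0.77, a call lost on the mean per base at -0.65) and 5 had no region at the start. The shares of this list were 25% called in NALM6 only and 12.5% higher there, beside 3.24% and 5.72% of all protein-coding genes. GPR155 was the only member tested, and 15.9% of protein-coding genes with a tested start were higher in NALM6. AGAP1, PTPRM and GPR155 also carried H3K4me2 in 3 of 3 REH libraries.

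Among 12 genes used by every cell, 4 were higher in Raji, 6 did not pass the test and 2 were called in some libraries, with a median of 0.15. The share higher in Raji was 33.3%, beside 38.5% of the B lineage list and 5.45% of all protein-coding genes. Among tested starts it was 4 of 10, beside 10 of 20 in the B lineage list and 15.2% of protein-coding genes. EEF1A1 had the largest difference (1.84), which fell to 0.17 when each 20 Mb stretch was centred apart (adjusted p 0.64). ACTB differed by 0.53 and PPIA by 0.59, both on chromosome 7, and under that centring they were at 0.35 and -0.0073. Both lost their calls there, without centring (0.29 and 0.35) and with each chromosome centred apart (0.16 and 0.22). The ACTB call was also lost with the replicate block (0.54, limma adjusted p 0.082) and on the mean per base (0.48).

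**Figure D3:**
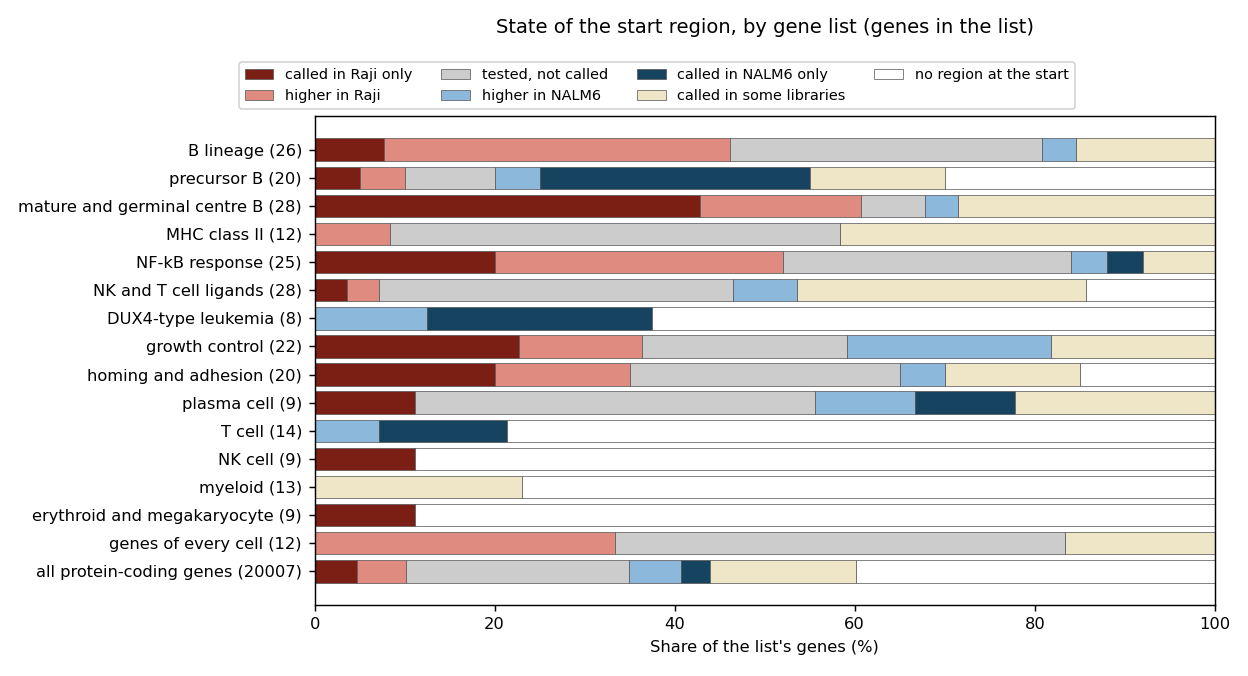
Each bar gives, for a gene list with its number of genes in brackets, the share of genes (%) by the state of the H3K4me2 region at the start. The mature and germinal centre B list has 42.9% of its genes called in Raji only and the precursor B list 30% in NALM6 only, beside 4.68% and 3.24% of all protein-coding genes.

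Of the tested distal regions 48.7% were called, beside 32% of the gene-start regions. Distal peaks made up 37.4%, 16.7% and 27.1% of the peaks in Raji and 13.7% and 19.4% in NALM6, with means of 27.1% ± 10.4 (SD, n = 3) and 16.6% ± 4.06 (SD, n = 2). The groups overlapped, and an exact two-sided permutation test over libraries gave p = 0.3 for the difference of 10.5 percentage points, where 3 against 2 libraries cannot give less than 0.1. Only 372 distal regions were called in all 5 libraries, 5.57% of those tested.

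The distal regions with the largest differences toward Raji were near AMZ1 (log2 difference 2.29), RHOU (2.00), CUX1 (1.96), IER5 (1.93) and SOGA1 (1.77). The CUX1 region (chr7:101852701-101862780), whose densest window is printed above, had levels of 3.64, 3.14 and 3.52 in Raji and 0.820 and 0.946 in NALM6. It was wider rather than denser in Raji, since its mean per base differed by 0.09, as did that at IER5 by 0.02, and SOGA1 (0.48) lost its call on that measure too. The region named for RHOU lies 113 kb from that gene and overlaps 11 genes of 5S ribosomal RNA, which are near-identical copies, so its reads cannot be placed with certainty.

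Toward NALM6 the largest distal differences were near PTMA (-3.38), IL17C (-2.72), TMEM121 (-2.51), ARMC12 (-2.16) and LILRB2 (-2.15). The PTMA region (chr2:231679941-231689330), printed in part above, had levels of 0.560, 1.15 and 0.833 in Raji and 7.36 and 9.74 in NALM6, and it was both longer and denser in NALM6, with a log2 difference in the mean per base of -1.64. PTMA encodes prothymosin alpha, a nuclear protein of dividing cells. The region named for TMEM121 (chr14:105690801-105693970) lies within the immunoglobulin heavy chain locus, and after bryostatin its difference was -0.04 (adjusted p 0.98). The region named for ARMC12 lies in FKBP5, which encodes a chaperone of the glucocorticoid receptor.

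Of all regions, 9.62% were called in Raji only. Of 63 H3K4me2 regions in the heavy chain locus 11 were called in Raji only and 3 in NALM6 only, of 30 in the kappa locus 9 and 0, and of 42 in the lambda locus 14 and 1, with no test made. Of the 697 distal regions called in Raji only, 668 lay outside antigen receptor loci. Counted by nearest protein-coding start, TMEM121 had 10 of them, RPIA 9, VPREB1 5 and TOP3B 4, more than any other gene and nearly all in these loci, followed by KCNK12, FCGR2A, ITPKB and CHST11 among the genes with 3. The most intense distal regions of this kind were elsewhere. The highest lay at a DUX4L50 pseudogene on chromosome 9 (chr9:63816271-63819170; 5.79, 5.18 and 5.78). Its means were 1718, 1357 and 1540 RPKM in Raji, and the placement of its reads was not tested. Others lay, in duplicated sequence, near ZNG1F (5.25, 4.84 and 4.08) and at 4 further 5S genes (3.37, 3.34 and 3.72).

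ZMIZ1, a coactivator gene, had the most distal regions called in NALM6 only, with 6 at 34.7 to 125 kb from its start, and all 6 were called in 3 of 3 REH libraries. TBC1D14 and LDLRAD4 followed with 4 each, and INSIG1 and DNAJB6 were among the genes with 3. The most intense such regions lay in BAHCC1 (7.59 and 8.08), at the long non-coding RNA gene BLACE near INSIG1 (4.72 and 5.44) and in ZC3H3 (3.94 and 4.84). BAHCC1, which encodes a chromatin reader, thus had both a start region higher in NALM6 and an intronic region 34.4 kb away called in NALM6 only.

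The letters of the octamer, ATGCAAAT, which the factors OCT1 and OCT2 bind before immunoglobulin V genes, occurred in 58 of 697 windows of 300 bp around the strongest signal of distal regions called in Raji only (8.32%). They occurred in 3 of 623 windows called in NALM6 only (0.482%) and in 5.07% of all distal windows. Outside the receptor loci the Raji share was 7.34%. These shares were not recomputed without Raji replicate 2. Of the 9 octamers in receptor loci, 8 lay 34 to 102 bp before a V gene, 3 of which are printed above. The letters CCCNNGGG (EBF) occurred in 37.9% of the windows called in NALM6 only, 21.8% of those called in Raji only and 20.8% of all distal windows. The windows differed in base composition, with a median GC content of 62% in NALM6 only, 54.3% in Raji only and 52.7% in all, and its part in the motif shares was not tested.

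Libraries that the comparison did not use were then read at the same regions. After bryostatin, 34.6% of 8776 tested regions were called between the lines, 17.1% higher in Raji and 17.4% higher in NALM6. Of the 1066 regions higher in untreated Raji, 1064 were tested there, 814 were called higher in Raji and 0 the other way. Of the 1131 higher in NALM6, 1115 were tested, 914 were called higher in NALM6 and 1 higher in Raji. These are other libraries of the same lines in another condition. CD22 had a log2 difference of 1.44 there and CD27 of 3.47.

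H3K4me3 was measured over the same regions in further libraries. Of 8446 regions tested for H3K4me3, 44.6% were called, 21.8% higher in Raji and 22.8% higher in NALM6. Of the 1066 regions higher in Raji by H3K4me2, 872 were tested for H3K4me3. Of these 872, 543 were higher in Raji by H3K4me3 and 40 higher in NALM6. Of the 1131 regions higher in NALM6, 848 were tested for H3K4me3, of which 493 were higher in NALM6 and 58 in Raji. CD22 had an H3K4me3 difference of 2.29. BCL6 and MYB, given above, were opposite in sign between the 2 marks, as was CDKN1A, with 0.35 in H3K4me3. Of the distal regions called in Raji only, 33.3%, 16.6% and 13.2% were overlapped by H3K4me3 peaks in the 3 Raji libraries, beside 13.7%, 7.33% and 5.59% of all distal regions. For the gene starts called in Raji only the shares were 86.1%, 78.1% and 72.8%, beside 79.1%, 75.2% and 73.3% of all gene starts.

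Many of the distal regions called in NALM6 only also carried H3K4me2 in REH. Of these, 342 of 623 (54.9%) were called in 3 of 3 untreated REH libraries, and of those called in Raji only 115 of 697 (16.5%). Single REH libraries overlapped 56% to 66.5% of the former, 17.5% to 31.6% of the latter and 20.9% to 33.6% of all distal regions. At gene starts the counts were 691 of 963 (71.8%) and 578 of 1221 (47.3%). Single REH libraries overlapped 72.3% to 77.3% of the starts called in NALM6 only and 49.7% to 67.1% of those in Raji only. They overlapped 75.7% to 84.7% of all gene-start regions. No test was made, as presence depends on depth, and these shares too were not recomputed without Raji replicate 2. H3K27me3 was read as presence only, because its libraries ranged from 819 to 73265 peaks in Raji. Raji replicate 3 had H3K27me3 peaks over 44.3% of the gene starts called in NALM6 only and over 14.9% of all gene-start regions. In Raji replicate 1 these shares were 3.53% and 1.10%, and in Raji replicate 2 they were 25% and 67.7%, so the Raji libraries differed in order. NALM6 replicates 2 and 3 had H3K27me3 peaks over 19.9% and 13.2% of the gene starts called in Raji only. The shares of all gene-start regions were 10.5% and 7.24%.

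**Figure D4:**
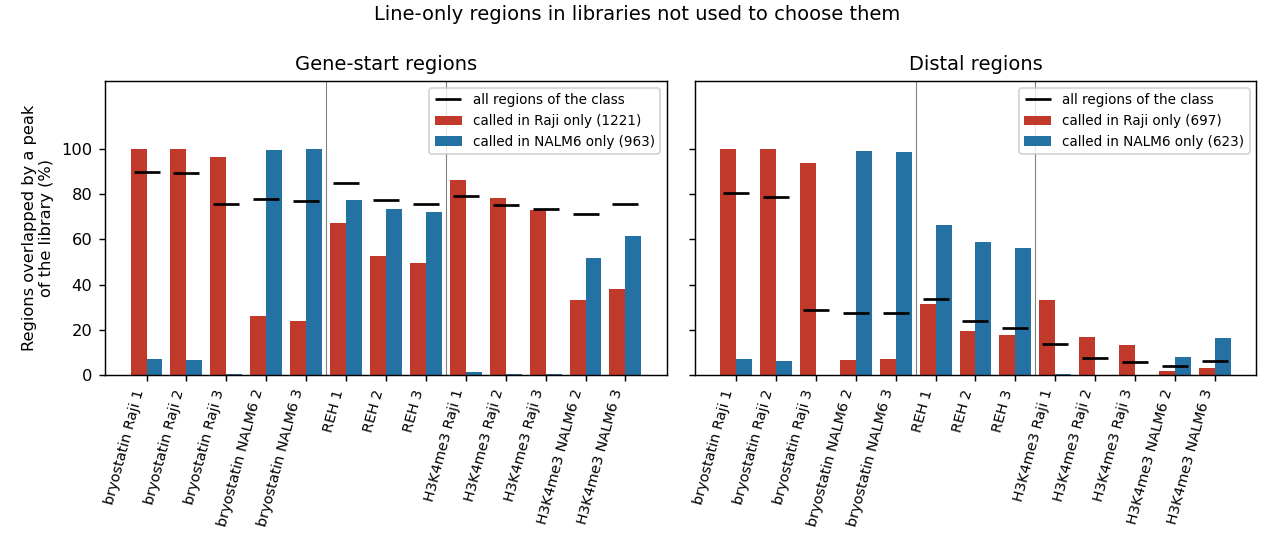
Bars give the share (%) of regions called in Raji only and in NALM6 only that a peak of each further library overlaps, for gene starts and distal regions, and black lines give the share of all regions of the class. Among distal regions, those called in NALM6 only reach 56% to 66.5% in the 3 REH libraries and those called in Raji only 17.5% to 31.6%.

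Differences also followed chromosomes. The median log2 difference was 0.35 over the regions of chromosome 7 and 0.44 over those of chromosome 20, and from -0.23 to 0.07 on the other chromosomes. It was 0.35 and 0.41 after bryostatin and 0.38 and 0.42 for H3K4me3. On these 2 chromosomes 221 regions were higher in Raji and 38 in NALM6. Of 346 tested regions on chromosome 7, 38.4% were higher in Raji and 7.23% in NALM6. Of 188 on chromosome 20, the shares were 46.8% and 6.91%. Over all tested regions they were 16% and 16.9%. On chromosome 8, the stretch from 20 to 40 Mb had a median of -1.26, with 22 of 25 tested regions higher in NALM6 and 0 in Raji, and that from 60 to 80 Mb had one of 0.68, with 19 of 26 higher in Raji. DNA copy number was not measured, so copy number and the level of the mark cannot be told apart here. With each 20 Mb stretch centred apart, 1852 regions were called, and 1528 of the 2197 were called in the same direction.

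**Figure D5:**
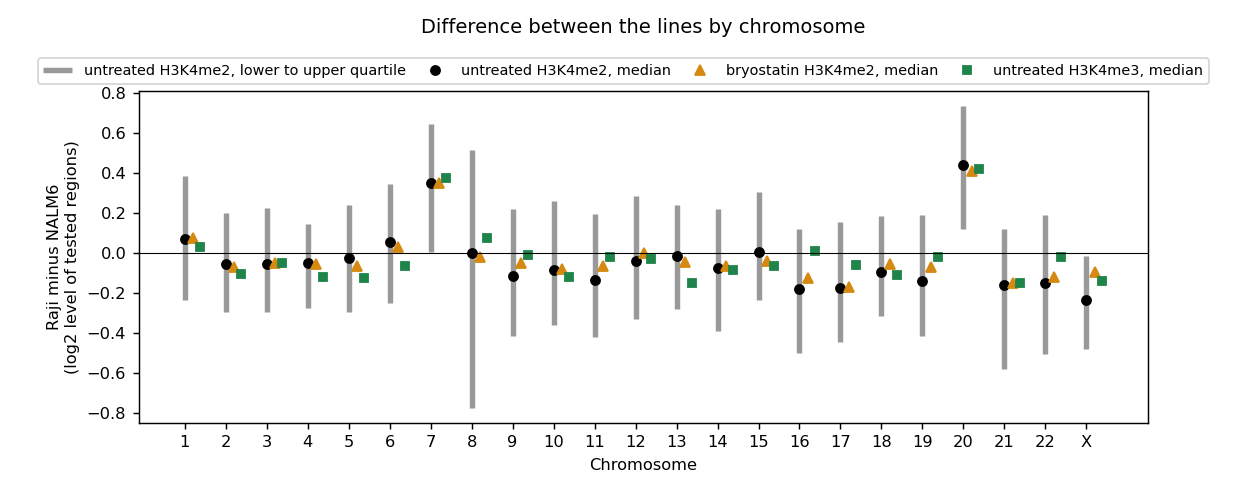
For each chromosome, the grey bar spans the lower to the upper quartile and the black point marks the median of the Raji minus NALM6 log2 difference in untreated H3K4me2, and the triangle and square mark the medians after bryostatin and in H3K4me3. Chromosomes 7 (0.35) and 20 (0.44) stand above the others in all 3 readouts.

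The difference also went with base composition. Over the tested regions, the correlation of the log2 difference with GC content was -0.27, and the median difference ran from 0.16 in the tenth of regions with the least GC to -0.28 in the tenth with the most. Pairs of libraries of the same line gave correlations from -0.40 to 0.41, so GC content separated libraries within a line as well. With the GC trend removed 2307 regions were called, 1956 of them among the 2197 and in the same direction. CD22, CD27, the LTA, LTB and TNF region, TRAF1, CCR7, BCL2L1, CDKN1A and S1PR1 kept their calls under that setting and with each chromosome or 20 Mb stretch centred apart.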

How the data were processed

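Cut&Tag libraries were compared as peak lists. Per the submitters' processing notes and the study's methods, the authors used bcl2fastq, Trim Galore, Bowtie2 against hg38 and SEACR (stringent peaks, called per library), and DESeq2 for comparisons of treated with untreated cells; versions are not given in the sources used here. The deposited peaks carry a total signal, the sum of RPKM coverage along the peak, and a maximum signal, the RPKM of the highest 10 bp bin. The authors' RPKM values are whole multiples of the worth of 1 read, which gives each library's mapped reads, so depth and peak caller limit presence. NALM6 replicate 1 carries another scaling that the sources do not describe and was kept out of the tests.

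Peaks on chromosomes 1 to 22, X and Y were merged at 1 bp of overlap, and total signal was summed per region. Log2 sums, with no pseudocount since every tested region had a peak in all 5 libraries, were centred on each library's median tested region and compared with limma 3.58.1 (R 4.3.3, eBayes with trend), with Benjamini-Hochberg adjustment over all tested regions at 0.05. The test was checked on simulated data. Single values were compared by an exact permutation test over 10 arrangements, whose smallest p is 0.1. Genes were taken from GENCODE 44 and promoters from the RefSeq table of GRCh38.p14. Named were, per direction and class, the 5 largest called differences with groups that do not overlap, the 3 highest regions called in 1 line only, the genes with the most distal regions called in 1 line only, CD22, MS4A1 and up to 4 called members of each list per direction; other list members are given to complete the counts. The regions, gene lists and alternatives were chosen with earlier results of these data known. Alternatives were the maximum and mean signal, other centring, filters, windows and merging, the replicate block, equal numbers of peaks and leaving out each library. IgG libraries were not used here, and some genes that the rule names are not reported here.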

Additional observations from a re-analysis of the deposited data

Results flagged for a closer look

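Peaks outside the human chromosomes were not part of the comparison. On the contig of the Epstein-Barr virus, which Raji cells carry, untreated Raji H3K4me2 replicates 1, 2 and 3 held 17, 9 and 7 peaks, which covered 37.7, 23.4 and 58.8 kb. The 3 untreated NALM6 libraries and the 3 untreated REH libraries held 0 peaks there. The order of the Raji libraries by number of peaks is not that by covered length.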

How the results depend on the processing

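Settings that moved a count of called regions by over 1.5 times were these. On the maximum signal 1390 regions were called (1270 gene-start, 120 distal), on the mean per base 580 (521 and 59), without centring 1343 (1205 gene-start), with NALM6 replicate 1 in the fit 774 of 4093 (717 and 57), and in the upper 0.5 of peaks 957 (903 and 54). Distal calls were 304 with regions called in at least 4 libraries, 103 in the upper 0.5 of regions, 117 with the same number of peaks (52 higher in Raji, 65 in NALM6) and 297 with protein-coding starts only. Leaving out each library gave 1238 (without NALM6 replicate 3) to 2585 calls in all, 1117 to 2311 at gene starts and 121 to 274 (without Raji replicate 2) at distal regions, 1353 to 4480 after bryostatin and 2204 to 5090 for H3K4me3. With 1 NALM6 library left, it is assumed to vary like the others.

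Regions called in 1 line only numbered 2080 in the upper 0.5 of peaks (1183 Raji, 897 NALM6), NALM6 only 840 when called in 3 of 3 NALM6 libraries, and Raji only 1206 with the same number of peaks. Leaving out each library gave 3548 to 6784 in all, 1920 to 5198 for Raji only (most without Raji replicate 2) and 1586 to 2394 for NALM6 only (most without NALM6 replicate 2). The difference in the distal share was 5.35 to 15.7 percentage points.

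The same-numbered libraries did not deviate together (r -0.25 and -0.14), so equal numbers were not treated as pairs. With the replicate block 1650 regions were called, 792 higher in Raji and 858 in NALM6 (1500 gene-start, 150 distal). NALM6 replicate 1 was not in that fit, so Raji replicate 1 had no partner and did not enter the difference. The median difference was -0.024, the same as without Raji replicate 1. Centring each chromosome (2088 calls) or each 20 Mb stretch apart and removing the GC trend were chosen after seeing the data. Of 51 tested regions and genes named, 22 kept their direction and call in every alternative run; of 995 values, 77 lost the call and 4 changed sign: EBF1 (0.076) and NECTIN2 (0.28) on the maximum signal, NECTIN2 on the mean per base (0.31) and PPIA under 20 Mb centring (-0.0073).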
